A study of Mus musculus with 8 samples.

Results

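Transcripts of Eif4g3 siRNA cells were compared between heavy polysomes and total RNA, to see which of them were held in heavy polysomes and which were left out of them when Eif4g3 was reduced. The values come from 1 of the 2 dyes, Cy5, on 8 of 8 arrays, which is 8 of the 16 channels of the series. Stromal cells from lymph nodes of BALB/c mice, the mesenchymal scaffold cells of that organ, were kept in culture, transfected by lipofection with 400 pmol of siRNA against Eif4g3 and harvested after 48 h. Control siRNA cells, cultured and fractionated alike, carried Cy3 on the same arrays. The groups are 4 arrays of total RNA, taken from whole lysate, and 4 arrays of heavy polysome RNA, taken from the pooled heavy fractions of a sucrose gradient from 10% to 60%. The design text gives 7 plates per siRNA, pooled before fractionation, and the labels do not say whether numbered replicates were separate cultures, so the p-values measure only the spread between these samples, which may be technical.

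Eif4g3 encodes a paralog of Eif4g1, the scaffold of the cap-binding complex eIF4F, which joins the cap-binding protein eIF4E to the helicase eIF4A and recruits the small ribosomal subunit. On a sucrose gradient messenger RNAs sediment according to the number of ribosomes they carry. Actively translated messages with long coding sequences collect in the heavy polysomes, whereas non-coding RNAs, stored messages and messages with very short coding sequences are found in lighter fractions. Equal RNA masses were labelled from both fractions and signals were normalised between arrays, so each difference is relative to the other transcripts of a sample. A log2 difference of -1 means that a transcript's normalised signal in heavy polysome RNA was 50% of that in total RNA. The signal is not a direct share of RNA, and its zero point depends on the scaling, as described below.

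The siRNA target was checked first. With loess normalisation within arrays, the log2 ratio of Cy5 to Cy3 at 1 Eif4g3 probe averaged -2.07 ± 0.29 for total RNA and -2.46 ± 0.50 for heavy polysomes (SD, n = 4). At the other probe it averaged -1.95 ± 0.75 and -2.07 ± 0.26, and both were negative on all 8 arrays. Eif4g3 siRNA carried Cy5 on all 8, so dye bias of a probe and knockdown cannot be told apart in this ratio. Between 43.1% and 53.5% of probes were well above background in Cy5, and no Cy5 spot was saturated. In Cy3 this share was lowest on heavy polysome array 1, at 37.6%. Across the genes tested, each by its brightest probe, normalised Cy5 arrays of 1 fraction correlated at 0.911 to 0.957 for total RNA. For heavy polysomes they correlated at 0.964 to 0.990. Of 13765 genes tested, 77.2% varied more in total RNA, where the median SD of a gene was 0.43 against 0.26 in heavy polysome RNA. Of 21 stromal markers 18 were measurable, among them Pdgfrb, Col1a1, Thy1 and Pdpn on all 8 arrays. Against this, 6 of 13 macrophage, 3 of 11 lymphocyte, 2 of 11 endothelial and 4 of 7 epithelial markers were measurable, and 0 of the markers passed the test between fractions described next. In bulk samples, fewer cells of a type and less RNA per cell cannot be told apart.

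The sharpest feature of the data was a set of transcripts left out of heavy polysomes. With limma over all genes and Benjamini-Hochberg adjustment, 35 genes (0.254%) fell and 0 (0%) rose at an adjusted p under 0.05. The 35 differences ran from -3.16 to -1.17 on the log2 scale, that is from 8.95-fold to 2.25-fold lower, and in each case every heavy polysome array lay below every total RNA array. The same separation of 4 arrays from 4 was seen in 797 of all tested genes in the lower direction (5.79%) and in 327 in the higher direction (2.38%). At an unadjusted p under 0.05, 1084 genes (7.88%) were lower and 608 (4.42%) higher. The median difference over all genes was 0.00. RefSeq records named 31 of the 35 genes, of which 26 are protein-coding, 3 long non-coding and 2 pseudogenes.

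**Figure D1:**
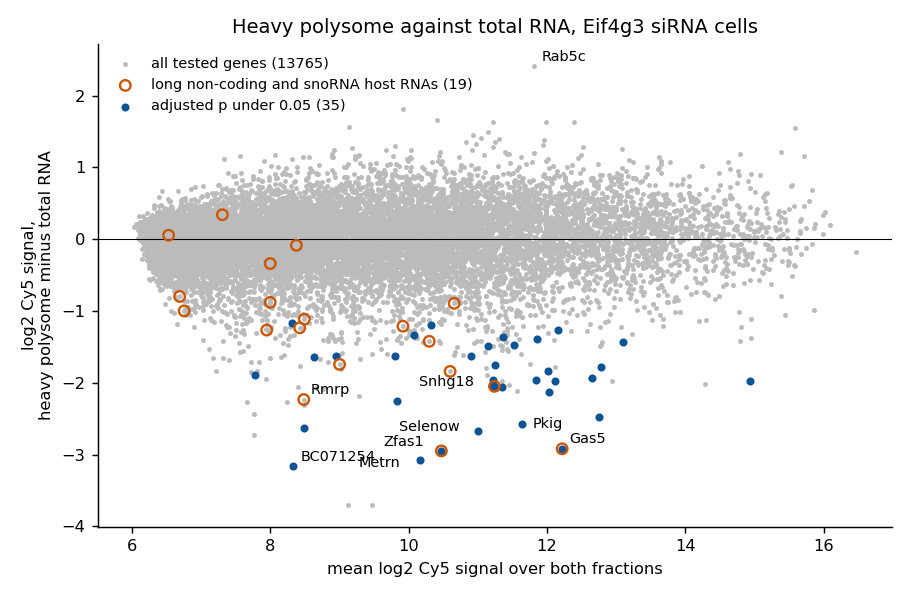
Each point is a gene: the x axis gives its mean log2 Cy5 signal over both fractions, the y axis the log2 Cy5 signal of heavy polysome minus total RNA (means of 4 arrays each). The 35 genes that passed the test (blue) all lie below 0, and 17 of the 19 long non-coding and snoRNA host RNAs (orange rings) do too.

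The number of genes depended on the scaling and on single arrays. Scaling each array to its 75th percentile moved the median of all genes by -0.25 and gave 5 higher and 243 lower genes. Scaling to the median of all probes moved it by 0.57 and gave 1591 higher and 29 lower. Leaving out total RNA arrays 1 to 4 in turn gave 85, 17, 8 and 110 genes, and leaving out heavy polysome arrays 1 to 4 gave 4, 6, 20 and 9. Gas5, Pkig, Wbp1 and Snhg18 passed without any one of the 8 arrays, and all 35 genes kept a negative difference in all 23 alternatives. In all 35, every heavy polysome array lay below every total RNA array. Their sign with arrays left out was therefore largely fixed in advance and is no separate support. Each slide held 1 fraction, so slide and fraction cannot be told apart other than by a random block. With it all 35 passed, but the estimated correlation within slides was -0.18, which narrows the errors. The position of an array on its slide varied within both fractions, and the 35 genes differed by -4.31 to -1.0 at the first position and by -3.20 to -1.02 at the second. These signs too follow from the separation of the arrays. With position as a block 23 of the 35 passed, and the 12 lost were Metrn, Pcif1, Cox20, Tmem134, Mrpl42, Fdx2, Timm8b, Tomm5, Gatad1, 1810058I24Rik, 2310047M15Rik and E130201H02Rik, at adjusted p of 0.0511 to 0.0774 by limma.

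Long non-coding RNAs that passed the test were Gas5, Zfas1 and Snhg18. Small nucleolar RNA host genes are transcribed as multi-exon RNAs whose introns release snoRNAs, and their spliced exons hold no long open reading frame. Many of them start with a run of pyrimidines, the terminal oligopyrimidine (TOP) tract also found at the start of ribosomal protein messages, through which translation follows mTOR signalling. To show what these starts look like, RefSeq sequence (GRCm38.p6) from 10 bases before to 20 bases after the annotated start is given for the 3 host RNAs that fell and for 3 ribosomal protein genes described below, with the longest run of C and T in capitals.
Gas5, chr1:161035156-161035185, plus strand: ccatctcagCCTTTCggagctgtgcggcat
Zfas1, chr2:167062924-167062953, plus strand: tgcgCCCCgggcggccgcaggtctcggctg
Snhg18, chr15:32244643-32244672, minus strand: cccaggCCCCTCCTCTagccccgcctcttc
Rpl31, chr1:39367841-39367870, plus strand: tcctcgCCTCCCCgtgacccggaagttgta
Rps21, chr2:180257369-180257398, plus strand: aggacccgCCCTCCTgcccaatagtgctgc
Rps28, chr17:33824543-33824572, minus strand: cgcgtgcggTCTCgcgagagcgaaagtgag
Gas5 and Rps21 each have another annotated start, not shown, whose longest run is shorter, at 3 and 4 bases.

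A run of 7 or more bases that are all C or T, searched on the transcribed sense strand of this window, was held by 17.9% of the 32851 RefSeq starts. At the level of genes, a gene with several starts was counted by the start with the longest run, which raises the share. The run was found in 20.9% of the 9831 tested genes with a start in the table. It was found in 32 of 59 ribosomal protein genes (54.2%), in 6 of 13 other TOP messages (46.2%) and in 3 of 16 genes of the non-coding list (18.8%). These 3 were the snoRNA hosts Snhg18, Snhg16 and Snhg5, and the list also holds RNAs that are not hosts. Of the genes that fell, 4 of 24 (16.7%) had the run. Among the ribosomal protein genes, the median difference was -0.30 with such a run and -0.21 without it. These counts describe the letters at annotated starts, which can lie some bases away from the start used in these cells.

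Gas5, an abundant host of snoRNAs that accumulates in growth-arrested cells, had log2 Cy5 values of 13.35, 13.64, 13.65 and 14.06 on the total RNA arrays and of 11.04, 10.75, 10.05 and 11.19 on the heavy polysome arrays. The lowest total RNA array lay above the highest heavy polysome array by more than the spread within either fraction. Gas5 fell by 2.92 ± 0.27 (SE), 7.56-fold, with an adjusted p of 0.00492 by limma. Its probe lies at chr1:162873990-162874682 on mm8. Zfas1, the snoRNA host antisense to Znfx1, had 11.07, 12.43, 11.70 and 12.59 in total RNA against 8.93, 8.93, 8.58 and 9.55. It fell by 2.95 ± 0.35 (adjusted p 0.0109 by limma), and its 4 total RNA arrays were spread more widely than those of Gas5. Snhg18 had 12.38, 12.64, 11.92 and 12.12 against 10.41, 10.14, 10.08 and 10.24, and fell by 2.05 ± 0.20 (adjusted p 0.00597 by limma). The probes of Zfas1 and Snhg18 carry older clone names in the array design, matched through RefSeq synonyms. Zfas1 lies antisense to Znfx1, and the labels do not state whether the labelling kept strand.

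Of the 45 long non-coding and snoRNA host RNAs listed, 19 were tested, and their median difference was -1.21 against 0.00 for all genes. The list's choice was made with results on these samples known, so its direction is not independent evidence. Of the 19, 17 lay below 0, where 49.7% of all genes lay, 3 passed the test, and 8 (42.1%) had all heavy polysome arrays below all total RNA arrays, against 5.79% of all genes. Relative to the median of all genes, the list's median stayed between -1.52 and -1.06 in 6 scalings and background settings. It was -0.79 with no filter on dim probes, -1.63 and -0.63 at the first and second slide position alone, and -0.90 to -1.40 with 1 array left out. Rmrp, the RNA of the RNase MRP particle, differed by -2.23 ± 0.55 (adjusted p 0.145 by limma), with 8.49, 11.45, 8.82 and 9.65 for total RNA against 7.59, 6.87, 7.53 and 7.49. Its total RNA arrays were spread over almost 3 log2 units, with array 2 highest. Snhg16 differed by -1.84 and Snhg3 by -1.74, at adjusted p of 0.0832 and 0.0777 by limma. The nuclear RNAs Malat1, a nuclear speckle RNA, and Neat1, the scaffold of paraspeckles, differed by -1.27 and -1.11, and the imprinted Meg3 and Rian by -0.88 and -1.0. In all 4 the arrays of the fractions overlapped. Tug1 at -0.08, the telomerase RNA Terc at 0.06 and Xist at 0.34 had overlapping arrays too. Over the whole array, the 160 tested genes that RefSeq classes as lncRNA had a median of -0.40, 86.3% of them lay below 0 and 42 (26.3%) separated 4 arrays from 4 in the lower direction, whereas the 12038 protein-coding genes had a median of 0.02 and 4.66% separated so.

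Among protein-coding genes, Metrn, which encodes the secreted neurotrophic factor meteorin, showed the largest fall. Its values were 10.89, 11.99, 11.70 and 12.24 on total RNA arrays against 7.52, 9.49, 8.10 and 9.41 on heavy polysome arrays. Heavy polysome arrays 1 and 3 were lower than arrays 2 and 4 by more than 1 log2 unit, but all 4 were below total RNA. Metrn fell by 3.07 ± 0.47 (adjusted p 0.0387 by limma). Pkig encodes an inhibitor of protein kinase A. Its values were 12.91, 13.26, 12.88 and 12.66 against 10.47, 10.41, 10.02 and 10.51, both fractions lying tightly together, and it fell by 2.58 ± 0.20, or 5.96-fold, with the lowest adjusted p of the data, 0.00261 by limma. Wbp1, which encodes a ligand of WW domains, was as regular, with 12.82, 13.16, 13.05 and 13.36 against 11.12, 10.96, 11.01 and 10.81, and fell by 2.12 ± 0.18 (adjusted p 0.00335 by limma). Tmsb10 encodes thymosin beta 10, a very short protein that binds actin monomers. It had 11.63, 12.82, 12.66 and 12.39 against 10.12, 10.05, 10.72 and 10.37, and fell by 2.06 ± 0.28 (adjusted p 0.0232 by limma). Its relative Tmsb4x, which encodes thymosin beta 4, differed by -1.22 and did not pass (adjusted p 0.182 by limma), although its arrays also separated.

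Selenow encodes selenoprotein W, a small protein that contains selenocysteine. Its message had 11.26, 13.11, 12.02 and 12.97 on total RNA arrays against 9.74, 9.63, 9.25 and 10.07 on heavy polysome arrays, and it fell by 2.67 ± 0.39 (adjusted p 0.0342 by limma). Selenocysteine is inserted at UGA codons, which otherwise end translation, with the help of a hairpin in the 3' part of the message. Of 24 selenoprotein genes 20 were tested. Their median was -0.27, 12 lay below 0 and 8 above (49.7% of all genes lay below), 1 passed, and 4 (20%) separated in the lower direction, against 5.79% of all genes. Relative to all genes the median was -0.11 without total RNA array 2, -0.15 without total RNA array 1, -0.09 without heavy polysome array 3, -0.61 at the first slide position alone and -0.07 with either scaling that shifts the median of all genes. Selenoh, a nucleolar protein, and Gpx1, the cytosolic glutathione peroxidase, differed by -1.41 and -1.02 (adjusted p 0.109 and 0.146 by limma). At the other end, Selenos, a protein of endoplasmic reticulum quality control, was higher by 1.04 with non-overlapping arrays but did not pass (adjusted p 0.375 by limma), and total RNA array 4 was its lowest.

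**Figure D2:**
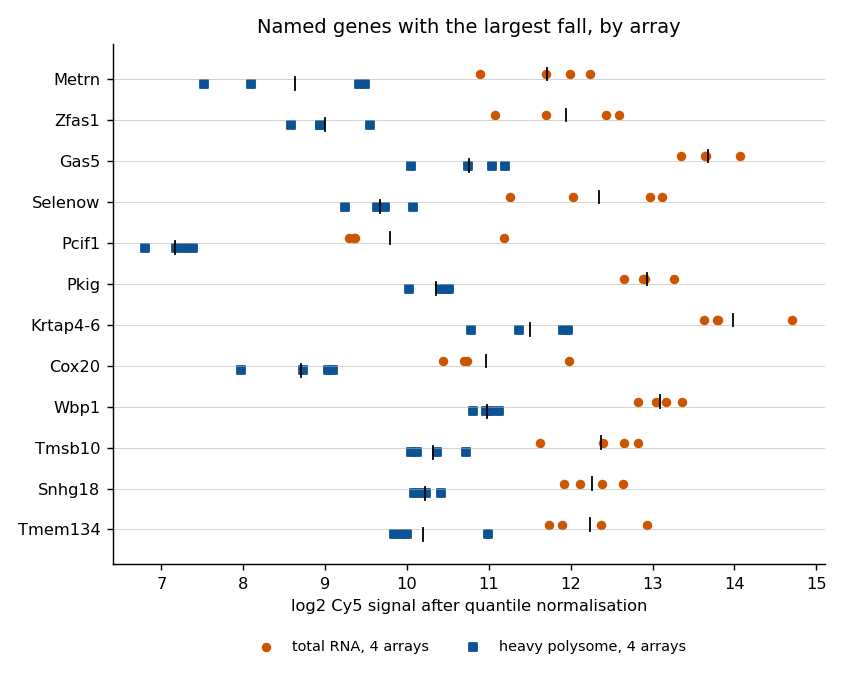
Log2 Cy5 signal of each array for the 12 named genes with the largest falls: circles are the 4 total RNA arrays, squares the 4 heavy polysome arrays, and black ticks their means. In each gene all squares lie left of all circles; in Pcif1 total RNA array 2 stands at 11.18 while the others lie between 9.29 and 9.36.

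The remaining genes of the 12 with the largest falls were Pcif1, Krtap4-6, Cox20 and Tmem134. Pcif1, the cap-specific adenosine methyltransferase, fell by 2.63 ± 0.41 at a probe matched by a synonym, whereas 2 other Pcif1 probes stood at 0.11 and 0.15. Cox20, an assembly factor of cytochrome c oxidase, fell by 2.25 ± 0.37, and Tmem134, a membrane protein, fell by 2.04 ± 0.33. Total RNA array 2 was the highest of its fraction in Pcif1, Krtap4-6 and Cox20, and it was processed with another software version than the rest. Without it, 14 of the 35 genes passed, but array 2 was not alone in this. Without total RNA arrays 1, 3 and 4 in turn, 34, 8 and 35 of them passed. Without heavy polysome arrays 1 to 4 in turn, 4, 6, 20 and 9 passed. The probe named here as Krtap4-6, which fell by 2.48 ± 0.33, carries the older clone name 1110054P19Rik, and its identity rests on that synonym. For 13 of the 35 genes other probes were tested too, and 15 of those 17 probes were also lower, where 49.7% of all genes lay below 0. The exceptions were the 2 of Pcif1. The 15 ran from -2.91 for Tmem134 to -0.22 for 1810058I24Rik, and several were much weaker than the probe that passed. The other probe of 1810058I24Rik stood beside -1.83 at the one that passed, and that of Baalc was at -0.39 beside -1.63.

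Outside these 12, further genes that fell were named after their values were seen. Timm8b, a small chaperone of the mitochondrial intermembrane space, fell by 1.94 ± 0.28. Bola3, an iron-sulfur cluster assembly factor, fell by 1.98 ± 0.23. Tomm5, a small subunit of the outer membrane translocase, fell by 1.74 ± 0.27, and Tma7, a translation machinery associated protein, by 1.78 ± 0.24. Atp5md, a small subunit of ATP synthase, fell by 1.43 ± 0.19, Fdx2, a mitochondrial ferredoxin, by 1.39 ± 0.21 and Mrpl42, a mitochondrial ribosomal protein, by 1.47 ± 0.24. Ryk, a transmembrane Wnt receptor, fell by 1.49 ± 0.22, but its other probe differed by only -0.56. Marchf2, a membrane ubiquitin ligase, fell by 1.63 ± 0.21 and Arpc1a, a subunit of the Arp2/3 actin nucleator, by 1.62 ± 0.19. Fam149a fell by 1.97 ± 0.20 (adjusted p 0.00638 by limma) and Faxc by 1.17 ± 0.18. Pcnx4 fell by 1.62 ± 0.22 and Gatad1 by 1.36 ± 0.20, and their weakest other probes stood at -0.49. Protein size is given for some of the genes only, and whether it goes with the falls was not tested. The transcript BC071254, which was not matched to a RefSeq gene, showed the largest difference of the 35 and fell by 3.16 ± 0.37. Of genes that did not pass, the pseudogene Rplp1-ps1 differed by -3.69 ± 0.77 (adjusted p 0.08 by limma), with total RNA array 2 at 14.07 and the other 3 between 9.80 and 10.89.

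Messages of cytosolic ribosomal proteins lay slightly below the rest. All 80 listed were tested, the median difference was -0.23, 53 lay below 0 and 27 above, and 0 passed in either direction. In 10 (12.5%) the arrays separated in the lower direction, against 5.79% of all genes, and in 0 in the higher, against 2.38%. Rps29 was lowest, with 15.60, 15.60, 15.43 and 15.94 for total RNA against 13.74, 14.20, 14.73 and 14.38, a difference of -1.38 ± 0.24 (adjusted p 0.0562 by limma). Rps28 followed at -1.06, Rps21 at -1.02 and Rpl41, which encodes one of the shortest proteins known, at -0.98, with adjusted p of 0.0618, 0.0848 and 0.0787 by limma. Rpl31 differed by -0.83 with overlapping arrays, and at the upper end Rps9 stood at 0.56. Relative to the median of all genes the list's median lay between -0.52 and -0.23 in 6 scalings and background settings. The 19 other TOP messages, which encode elongation factors and other proteins, had a median of -0.12. Of them 1 (5.26%) separated in the lower direction, near the 5.79% of all genes. It was the poly(A)-binding gene Pabpc1, which is counted in the eIF4F list too.

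Mitochondrial messages from the nucleus spread in both directions. Of 75 mitochondrial ribosomal proteins 48 lay below 0, with a median of -0.12, and Mrpl42 alone passed. Its relatives Mrpl18, Mrps21, Mrps24 and Mrpl30 differed by -1.32, -1.11, -1.10 and -1.05 with non-overlapping arrays, and Mrps5 stood highest at 0.63. In this list 5 (6.67%) separated in the lower direction, near the 5.79% of all genes. Of 74 oxidative phosphorylation subunits 51 lay below 0, with a median of -0.15, and 0 passed. Without total RNA array 2 this median was -0.03, and that of the mitochondrial ribosomal proteins 0.02. Cox7c at -1.57, Ndufc1 at -1.41 and Uqcr10 at -1.12 were lowest, with adjusted p of 0.209, 0.138 and 0.0777 by limma, whereas Ndufa10 at 0.74 and Atp5pb at 0.65 separated upwards. Among these subunits 2 (2.70%) separated in the higher direction, near the 2.38% of all genes. In the lower direction 6 (8.11%) separated, against 5.79% of all genes. The median of the mitochondrial ribosomal proteins changed sign relative to all genes in 2 of 6 scalings and background settings.

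**Figure D3:**
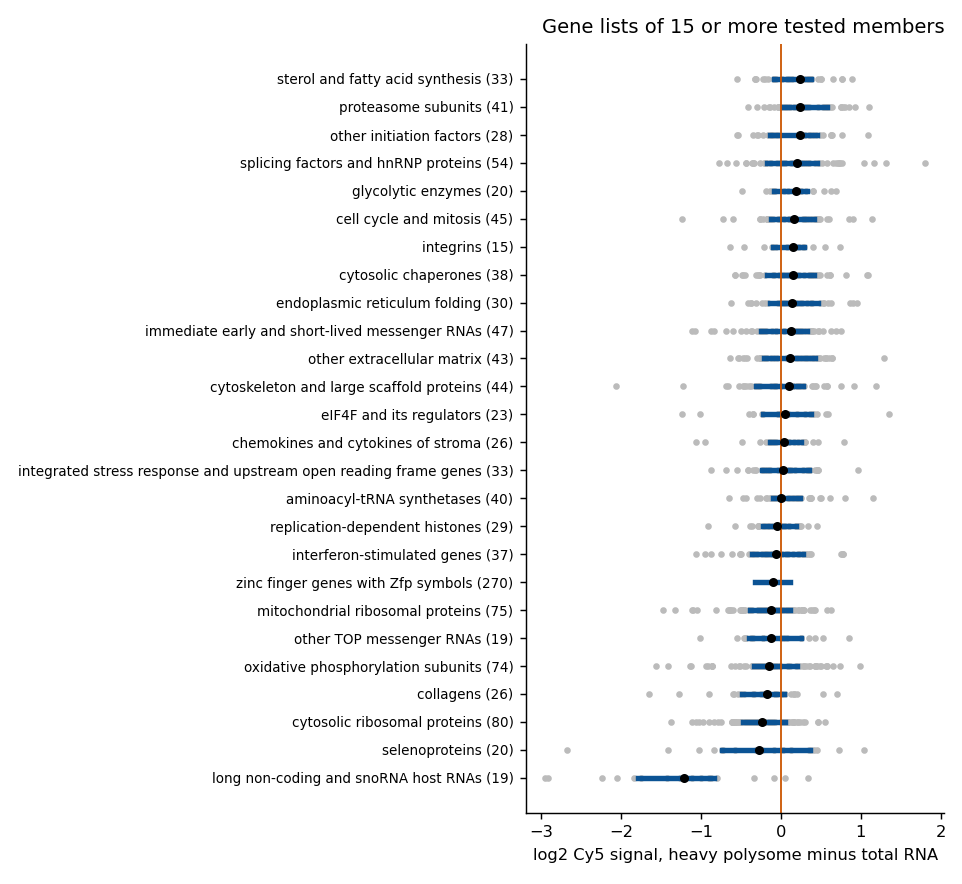
Gene lists with 15 or more tested members, ordered by median: the x axis is the log2 Cy5 difference of heavy polysome minus total RNA, grey points are members, blue bars the middle 50% of members, black dots medians, and the orange line the median of all 13765 genes. The long non-coding and snoRNA host RNAs are lowest at -1.21, and the other medians lie between -0.27 and 0.24. Members of the zinc finger list are shown by bar and median alone.

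No gene passed in the higher direction, and the lowest adjusted p there was 0.0697 by limma, for U2af2, a splicing factor that recognises the polypyrimidine tract. U2af2 had 6.70, 7.38, 7.06 and 6.8 for total RNA against 8.21, 7.79, 8.24 and 8.35, a difference of 1.16 ± 0.22 with no overlap. Tpm1, which encodes the actin-binding tropomyosin 1, differed by 1.19 ± 0.22 (adjusted p 0.0703 by limma), with 13.86, 13.99, 14.72 and 14.21 against 15.48, 15.32, 15.52 and 15.20. Sae1, a subunit of the SUMO-activating enzyme, differed by 1.64 ± 0.31 and the 14-3-3 gene Ywhag by 1.08 ± 0.22. Rab5c, a GTPase of early endosomes, had the highest difference of all, 2.41 ± 0.57, but total RNA array 4 at 12.10 lay above heavy polysome array 2 at 11.94 and it did not pass (adjusted p 0.128 by limma). These genes were picked for their values.

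Several lists had medians slightly above 0 in the same fit. In each 0 members passed, and over all genes 0 passed in the higher direction. Proteasome subunits, of which 41 were tested, had a median of 0.24 and 32 above 0, while 49.7% of all genes lay below 0. Of the 41, 1 (2.44%) separated in the higher direction, near the 2.38% of all genes. Psmb1, a subunit of the catalytic core, was highest at 1.1. Genes of sterol and fatty acid synthesis had a median of 0.24, initiation factors outside eIF4F 0.24 and splicing factors and hnRNP proteins 0.21. In the higher direction 0 of 33, 0 of 28 and 2 of 54 (3.70%) of them separated. The proteasome median stayed above that of all genes in all 23 alternatives, at 0.17 to 0.40 relative to it. The others each fell below it in 1: initiation factors at -0.0011 with the mean of a gene's probes, and sterol synthesis and splicing factors at -0.08 and -0.06 with the second slide position alone. With 1 array left out, the median ran from 0.12 to 0.29 for initiation factors, lowest without total RNA array 2, from 0.05 to 0.28 for sterol synthesis and from 0.12 to 0.32 for splicing factors, lowest for both without heavy polysome array 3. In the matrix list Bgn, the proteoglycan biglycan, stood at 1.29 and Sparc, a collagen-binding matrix protein, at 0.64, both with separated arrays. They were the 2 of 43 (4.65%) in that list that separated in the higher direction, against 2.38% of all genes. Collagens had a median of -0.18, and the basement membrane chain Col4a4 was lowest at -1.65. Without heavy polysome array 4 the collagen median was -0.03, and at the first slide position alone it was 0.03. Interferon-stimulated genes had a median of -0.06, whose sign rested on single arrays: relative to all genes it ran from -0.58 without total RNA array 3 to 0.33 without total RNA array 4.

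All 23 members of the list of eIF4F and its regulators were tested, and 0 passed. The median was 0.05, with 13 above 0 and 10 below, and 2 (8.70%) separated in the lower direction, near the 5.79% of all genes. The Eif4g3 message that remained had 9.17, 8.71, 9.07 and 9.99 on total RNA arrays against 9.43, 9.60, 8.79 and 9.18 on heavy polysome arrays, a difference of 0.02 ± 0.29 with overlapping arrays (95% interval -0.64 to 0.67). Its paralog Eif4g1 had 9.97, 9.33, 11.07 and 11.93 against 11.78, 11.92, 12.37 and 11.66. Heavy polysome arrays were uniform and total RNA arrays spread over more than 2 log2 units, so the difference of 1.36 ± 0.49 did not pass (adjusted p 0.308 by limma). Eif4g2, a relative that lacks the eIF4E-binding part, differed by 0.37, the cap-binding protein Eif4e by 0.46, and the helicases Eif4a1 and Eif4a2 by 0.40 and -0.04. The helicase cofactors Eif4b and Eif4h stood at -0.22 and 0.05.

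The eIF4E-binding inhibitors Eif4ebp1, Eif4ebp2 and Eif4ebp3 differed by -0.23, -0.40 and -0.35, the cap-binding relatives Eif4e2 and Eif4e3 by 0.42 and 0.09, and the eIF4E transporter Eif4enif1 by -0.01. The kinases of eIF4E, Mknk1 and Mknk2, stood at -0.34 and 0.09, the exon junction helicase Eif4a3 at 0.30 and the eIF4A inhibitor Pdcd4 at 0.20. The lowest members were poly(A)-binding proteins, which join the tail of a message to eIF4G. Pabpc4 had 12.62, 12.04, 11.79 and 11.71 for total RNA against 10.53, 10.80, 11.24 and 10.66, a difference of -1.24 ± 0.25 (adjusted p 0.0801 by limma). Pabpc1, itself a TOP message, had 13.66, 14.81, 14.50 and 14.47 against 13.50, 13.46, 13.28 and 13.15, a difference of -1.01 ± 0.25 (adjusted p 0.147 by limma). In both, all heavy polysome arrays lay below all total RNA arrays. Their regulators Paip1, Paip2 and Paip2b stood at -0.04, 0.57 and 0.59, with overlapping arrays.

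**Figure D4:**
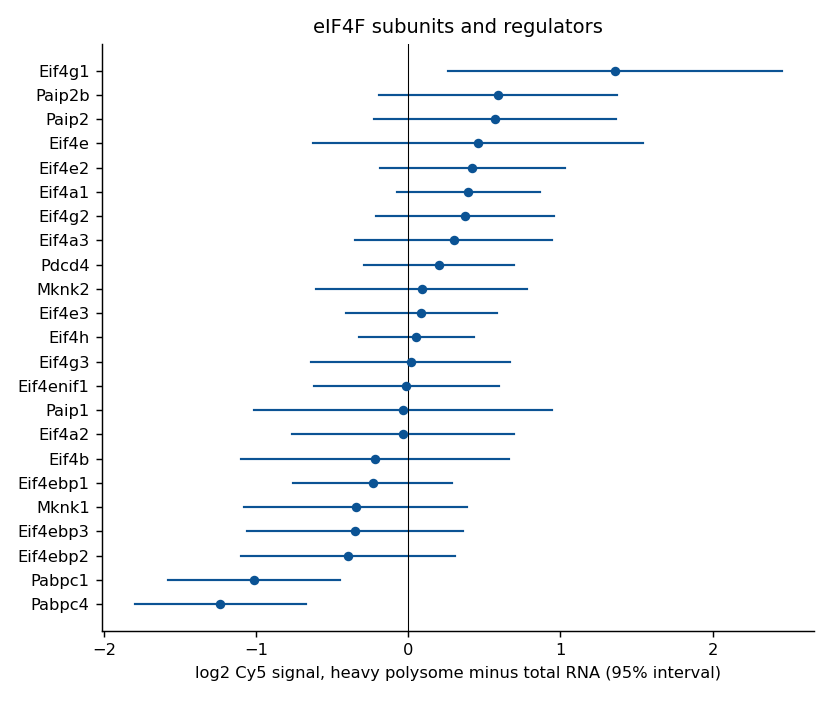
Log2 Cy5 difference of heavy polysome minus total RNA (dot) with its 95% interval from limma (line) for the 23 members of the eIF4F list. Pabpc4 and Pabpc1 lie at -1.24 and -1.01 and Eif4g1 at 1.36; no member passed the test over all genes.

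The same comparison in Cy3 shows what control siRNA cells did on the same arrays. Of 13504 genes measurable in both channels, 241 were lower (1.78%) and 1 higher (0.00741%) in Cy3. Of the 35 genes that fell in Eif4g3 siRNA cells, 32 also fell in control cells, with differences in Cy3 from -3.37 to -0.55 over all 35. Gas5 differed by -2.64 in control cells, Zfas1 by -2.47, Snhg18 by -2.45, Pkig by -2.52 and Wbp1 by -2.18, beside -2.92, -2.95, -2.05, -2.58 and -2.12 in Eif4g3 siRNA cells. The difference between the channels was tested directly, with Cy5 minus Cy3 on each array as the value. In limma 0 genes passed (0%), 591 (4.38%) had an unadjusted p under 0.05, the lowest adjusted p was 0.924, and at the median gene the 95% interval reached 0.45 to either side. The count remained 0 in all 24 alternatives run, where the lowest adjusted p was 0.239. For Gas5 the channels differed by -0.28 (95% interval -0.68 to 0.12), for Pkig by -0.05 (-0.52 to 0.41) and for Wbp1 by 0.06 (-0.31 to 0.43).

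Of the 35 genes, 4 had an unadjusted p under 0.05 for the difference between channels, where 4.38% of all genes had one. The 35 were selected for a fall in Cy5, which by itself favours negative differences between channels. Among the 4 was Arpc1a, named for this value. It fell by 1.62 in Eif4g3 siRNA cells and differed by -0.55 in control cells (adjusted p 0.181 by limma). The difference of -1.08 (95% interval -1.51 to -0.65) had an unadjusted p of 1.44e-04 in limma but did not pass over all genes, with an adjusted p of 0.924. Between channels, Cox20 differed by -0.61, as did NAP071064-1, a transcript not matched to a RefSeq gene. Snhg18 differed by 0.40, in the opposite direction.

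Of 13765 genes tested, some dim ones were well above background in all arrays of 1 fraction and in none of the other: 86 in heavy polysomes and 2 in total RNA. None of them passed the test. That flag was set on each array before normalisation. It covered 47.3% to 53.5% of Cy5 probes on heavy polysome arrays and 43.1% to 48.3% on total RNA arrays. The imbalance of 86 to 2 is therefore no separate result about the fractions. Their fold was the mean of the brighter group over a floored mean of the dimmer group. The floor on each array was the lowest signal well above background, used where the probe's own signal was lower. The fold was over 1 in 81 of the 86, but these were selected by their flags in heavy polysomes, so that count was largely fixed in advance. The highest in heavy polysome RNA were Btrc, a subunit of a ubiquitin ligase, 1.39-fold higher (adjusted p 0.293 by limma), and Nr2c2, a nuclear receptor, 1.38-fold (adjusted p 0.286 by limma). Scrt1, a zinc finger repressor, was 1.99-fold lower in heavy polysome RNA (adjusted p 0.0653 by limma) and Ssu2 1.84-fold (adjusted p 0.0832 by limma). For Btrc, Nr2c2 and Scrt1 the floor did not act, so these folds are plain estimates and not bounds.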

How the data were processed

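Agilent 2-colour whole mouse genome arrays were used, read with Agilent Feature Extraction per the submitters' processing notes. Per the file headers, the deposited scanner tables hold the intensity of each spot. Of these tables, 7 came from version 10.7.3.1 and that of total RNA array 2 from 10.5.1.1. The deposited series matrix holds log2 ratios of Cy5 over Cy3, within 0.01 of the processed signals' ratio for at least 99.2% of 41267 probes. Cy5 mean signals were corrected with normexp (offset 50), quantile-normalised over 8 arrays, with 76 to 130 outlier spots per array and all control spots left out, and averaged per probe. The brightest probe stood for a gene, tested if well above background on at least 3 of 4 arrays of a fraction. The contrast was fitted in limma 3.58.1 (R 4.3.3, version 1.17.8 of data.table), two-sided, with Benjamini-Hochberg adjustment at 0.05. The channel difference used Cy5 minus Cy3 per array. Plots used Python 3.11.15 and matplotlib 3.10.9. Names came from RefSeq records of GRCm38.p6, matching 33026 of 41174 probes (80.2%), and probe positions are on mm8.

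Tested on simulated data of 13761 genes, the fraction contrast called 26% of the 2-fold changes, 89% of the 4-fold changes and 2 unchanged genes. The channel contrast, on 13499 genes, called 54%, 98% and 5. Genes, lists and contrast were chosen with earlier results of these data known. Named by rule were the 12 largest falls with a RefSeq symbol that passed without overlap, up to 4 passing members per list, all eIF4F members and the bright-against-dim genes; others were picked for their values. Normalisations, background, filters, probe choice, blocks and left-out arrays were varied. The number of arrays limits the precision.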

Additional observations from a re-analysis of the deposited data

Results flagged for a closer look

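Among 36 genes named by rule, each tested in both fractions (72 groups of 4 arrays), 5 groups held an array whose gap to its nearest neighbour exceeded Dixon's critical ratio of 0.829. Chance gives about 1 in 20 such groups. Pcif1 was at 11.18 on total RNA array 2, with the next value at 9.36, and Krtap4-6 at 14.71 on the same array, with the next at 13.80. Tmem134 was at 10.996 on heavy polysome array 3, with the next at 10.01. Eif4e3 was at 7.61 on total RNA array 4, with the next at 6.92. Eif4g2 was lowest on heavy polysome array 3, at 11.05, with the next at 11.73.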

How the results depend on the processing

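Of 35 genes called in Eif4g3 siRNA cells (35 lower, 0 higher), the count was 26 with loess and Aquantile normalisation. Scaling to the 75th percentile gave 248 (5 higher, 243 lower) and scaling to the median of all probes 1620 (1591 higher, 29 lower). No background correction gave 56 (1 higher, 55 lower) and the processed signal 215 (20 higher, 195 lower). A filter on all 8 arrays gave 61 (1 higher, 60 lower), no filter 14 lower, and the mean of a gene's probes 58 (3 higher, 55 lower). Slide as a random block gave 132 (7 higher, 125 lower), an intensity trend 81 (4 higher, 77 lower), and heavy polysome arrays 2 and 4 as 1 replicate 10 lower. Leaving out 1 array gave 4 to 110 genes, 0 to 15 higher and 4 to 95 lower. Alternatives chosen after seeing the data were slide position as a block, with 26 (1 higher, 25 lower), and each position alone, with 0 at both, where 2 arrays stand against 2. The cause was not tested.

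Replicate numbers were checked for pairing: arrays of the same number deviated together at correlations of 0.03, 0.22, 0.23 and -0.01. Of 4 total RNA arrays 2 correlated best with their own number, and numbers were not taken as pairs in the main fit. Against this choice, interferon-stimulated genes, described below, did follow the number in both fractions. The labels do not say whether arrays of the same number come from the same cells. The fit with the replicate block gave 20 genes, 20 lower and 0 higher, 19 of them among the 35. The channel difference had 0 calls in all 24 alternatives, the replicate block included. Enrichment by coding length was not run, since no protein table was used here. For 86 and 2 genes, well above background in 1 fraction alone, the dim signal of the other fraction limits the value.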

Other observations

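Of 37 interferon-stimulated genes tested, 0 passed between fractions, yet their levels differed widely between arrays of 1 fraction. The median level of these genes, among them the antiviral effectors Ifit1, Rsad2 and Oasl2, was 10.13, 8.71, 7.47 and 10.57 in Cy5 on the total RNA arrays, in order of their number, and 9.40, 8.29, 7.45 and 10.37 on the heavy polysome arrays. In Cy3 the values were 10.08, 8.59, 7.61 and 10.77 for total RNA against 10.92, 8.33, 7.73 and 10.55. Arrays numbered 3 were lowest and arrays numbered 1 and 4 highest in both fractions and both channels. In Cy5, 29 of 37 genes were lowest on total RNA array 3 and 29 of 37 on heavy polysome array 3, against 16.8% and 41.2% of all genes. The median SD of these genes was 1.36 for total RNA and 1.14 for heavy polysomes, against 0.43 and 0.26 for all genes.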
